A study of Homo sapiens with 30 samples.

Results

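The regions described here are the 4874 run-on peaks, of 9965 called in repeat 3 of the global run-on library labelled hNABP1 KO with NTP, that lie on an hNABP2 site (48.9%, exact Clopper-Pearson 95% interval 47.9 to 49.9). A peak was taken when it shared at least 1 bp with a peak of either of the 2 anti-hNABP2 ChIP repeats, so both its presence in this library and its place on an hNABP2 site are given by the choice and are no finding. The other 5091 peaks of the same list lay off these sites and are used for comparison. All 9 run-on peak lists with NTP held 12143 peaks together.

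The study used HT1080, a human fibrosarcoma cell line, at passages 10 to 15, and the cells of the groups compared here had no treatment other than the genotype. Run-on libraries came from WT cells and from cells labelled hNABP2 (hSSB1) KO and hNABP1 (hSSB2) KO, each with and without nucleotides (NTP) in the reaction, in 3 repeats each. The ChIP-seq was made with a homemade anti-hNABP2 antibody in WT cells only, so the sites are those of WT cells and the run-on peaks those of cells labelled hNABP1 KO. DRIP-seq, in which the S9.6 antibody recovers RNA:DNA hybrids, was made from WT and hNABP2 KO cells in 2 repeats each. The series also holds DRIP samples labelled with RNase H for both genotypes, and WT ChIP samples labelled without the hNABP2 antibody. Neither kind was compared here. The sources used here do not state the kind of knockout or the number of clones. Nothing in them says how far repeats were separate cultures, so p-values measure the spread between these libraries.

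In a global run-on, nuclei are supplied with labelled nucleotides, engaged RNA polymerases extend the RNA they already hold, and the labelled RNA is captured and sequenced. Peaks of such RNA near a start mark places where many polymerases were engaged, among them polymerases paused shortly after initiation, and at many human promoters transcription starts in both directions. hNABP2 and hNABP1 are related single-stranded DNA binding proteins, and either can join INTS3 and INIP in the SOSS complex, which is known for its role in the response to DNA double-strand breaks; INTS3 also belongs to the Integrator complex, which acts on paused RNA polymerase II.

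Of the 10 regions with the highest run-on −log10 q among those bound in both ChIP repeats, and the 5 with the strongest ChIP repeat 1 peak at a promoter, 5 are shown with the start of their gene. The sequences run from 150 bases before to 30 bases from the RefSeq start on (GRCh38.p14, gene strand, 5′ to 3′), and capitals mark matches, on either strand, to the motifs listed in the account of promoter composition. P4HB, FAM174C and SSX2IP stand for high run-on peaks, GTF2A1 and ACAP2 for high ChIP peaks.
P4HB: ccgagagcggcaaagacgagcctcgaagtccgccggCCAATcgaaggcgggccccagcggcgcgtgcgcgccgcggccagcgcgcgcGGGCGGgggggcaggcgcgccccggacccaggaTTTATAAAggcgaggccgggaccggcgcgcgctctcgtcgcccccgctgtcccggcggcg
FAM174C: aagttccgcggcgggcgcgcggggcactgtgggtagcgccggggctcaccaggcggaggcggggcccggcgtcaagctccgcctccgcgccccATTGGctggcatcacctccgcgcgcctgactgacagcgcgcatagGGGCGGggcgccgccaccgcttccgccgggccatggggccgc
SSX2IP: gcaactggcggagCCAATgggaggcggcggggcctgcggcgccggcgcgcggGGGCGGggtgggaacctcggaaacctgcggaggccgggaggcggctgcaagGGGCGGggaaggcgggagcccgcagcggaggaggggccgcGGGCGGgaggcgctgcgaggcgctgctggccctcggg
GTF2A1: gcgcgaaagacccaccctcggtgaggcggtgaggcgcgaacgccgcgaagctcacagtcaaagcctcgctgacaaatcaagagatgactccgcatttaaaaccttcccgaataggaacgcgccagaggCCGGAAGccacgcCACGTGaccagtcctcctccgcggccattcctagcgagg
ACAP2: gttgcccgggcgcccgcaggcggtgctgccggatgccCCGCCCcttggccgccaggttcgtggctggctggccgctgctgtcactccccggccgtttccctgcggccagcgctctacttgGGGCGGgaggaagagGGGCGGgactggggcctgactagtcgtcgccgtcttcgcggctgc
The P4HB sequence (chr17:81860506-81860685, minus strand) is 78.9% G or C with 35 CpG, and holds a CCAAT box, a GC box and an overlapping pair of TATA box matches 30 and 28 bases before the start. FAM174C (chr19:1275380-1275559, plus strand, 78.3% G or C) holds a CCAAT box on the other strand and a GC box. SSX2IP (chr1:84690432-84690611, minus strand) is the richest of the 5 in G and C, at 81.1%, with a CCAAT box and 3 GC boxes. GTF2A1 (chr14:81221361-81221540, minus strand) is the poorest, at 61.7%, and has an ETS match and an E-box but no GC box. The start nearest to the run-on summit there is that of the antisense gene GTF2A1-AS1, 31 bp upstream of the summit. ACAP2 (chr3:195442991-195443170, minus strand, 74.4%) has 3 GC boxes.

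The regions were stronger and wider than the peaks off hNABP2 sites. Their fold, which is the authors' ratio of the summit over local background, had a median of 7.51 (interquartile range 5.18 to 12.3, lowest 1.89, highest 128), against 3.78 off the sites (2.84 to 4.73, highest 86.3). The difference of the medians was 3.73, and 1.97 among peaks with a −log10 q of at least 5. The authors' −log10 q had a median of 8.92 against 2.92, and the width one of 414 bp against 245 bp. A wider peak more easily shares 1 bp with a site, so the difference in width may follow in part from the choice. A fold of at least 10 was reached by 1674 regions (34.3%) and 272 peaks off the sites (5.34%), and a fold of at least 50 by 87 regions and 5 other peaks. These are peaks of 1 library, so the figures describe that library and carry no test. Among peaks off the sites, those within 1 kb of the end of a RefSeq gene had a median fold of 4.53 and the rest one of 2.84. Near gene ends the regions on hNABP2 sites thus still had the higher median, 7.56.

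**Figure D1:**
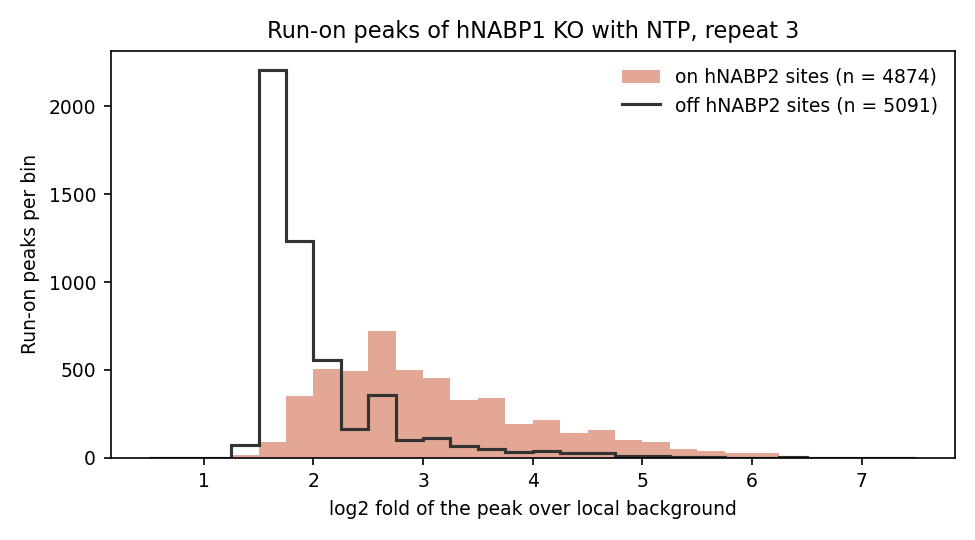
Number of run-on peaks (vertical axis) by log2 fold over local background (horizontal axis, bins of 0.25) in hNABP1 KO with NTP repeat 3, for 4874 peaks on hNABP2 sites (filled) and 5091 off them (line). Most peaks off the sites fall in the lowest occupied bins, with a median fold of 3.78, and the peaks on sites spread to 128, with a median of 7.51.

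Most of the regions rest on the first ChIP repeat. ChIP repeat 1 peaks were under 4692 of them (96.3%) and repeat 2 peaks under 1537 (31.5%), with 1355 (27.8%) on peaks of both, 3337 on repeat 1 alone and 182 on repeat 2 alone. Regions on both repeats had a median fold of 8.51, those on repeat 1 alone 7.16 and those on repeat 2 alone 5.56. Run-on summits lay inside an hNABP2 peak in 4087 regions (83.9%), and hNABP2 peaks covered at least 50% of the run-on peak in 3926 (80.5%). The least overlap was 2 bp, at ABCD3, a peroxisomal transporter, with a fold of 33, and at MCF2L2 with a fold of 5.67. The nearest excluded peaks stood 2 bp and 5 bp from a site, with folds of 5.09 and 4.17.

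Seen from the ChIP side, 4839 of the 10055 repeat 1 peaks with an interval (48.1%) carried a run-on peak of this library. The share was 63.1% (95% interval 61.0 to 65.1) of the 2277 peaks shared with repeat 2 and 43.8% (42.6 to 44.9) of the 7778 others. It was 50.7% for peaks annotated within 1 kb of a start (49.7 to 51.8), while 283 of the 1074 other peaks carried one (95% interval 23.7% to 29.1%). The height of the ChIP peak separated them little: with the peaks split into 4 equal groups from the lowest to the highest ChIP fold, the shares were 45.3%, 49.6%, 49.5% and 48.0%. Within the regions, log2 run-on fold and log2 ChIP repeat 1 fold had a Pearson r of 0.0775 (4692 regions, Spearman coefficient 0.0723), and for repeat 2 r was −0.0126 (1537 regions). These are descriptions across regions of the same libraries, and the regions are not replicates.

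Nearly all of the regions were at promoters, as were most hNABP2 sites. The deposited annotation, which is that of the ChIP peak a region overlaps most, placed 4573 (93.8%) within 1 kb of a start. It placed 133 in distal intergenic sequence and 54 in introns. Of all 10055 ChIP repeat 1 peaks, 8981 were annotated within 1 kb of a start, so the promoter share follows in large part from the choice. By RefSeq, 86.2% (95% interval 85.1 to 87.1) had the end of a gene, either its start or its last base, within 1 kb, and 62.2% had one inside the peak. Off the sites these shares were 36.6% (35.2 to 37.9) and 16.6%. RefSeq starts on both strands lay within 1 kb of the summit in 1069 of 3666 regions with a listed start (29.2%, 27.7 to 30.7), and in 22.0% (19.8 to 24.3) of the comparable peaks off the sites. The median fold was 7.70 with starts on both strands and 7.56 with starts on 1 strand.

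The run-on summits sat on both sides of the start. Among 2597 regions with listed starts on 1 strand only, 1121 summits (43.2%) lay 0 to 300 bp downstream and 1135 (43.7%) 1 to 300 bp upstream of the nearest start, with a median of −3 bp and quartiles of −124 and 102 bp. In the 2510 of these regions with a repeat 1 peak the ChIP summit had a median of 38 bp and the run-on summit one of −5 bp. Region by region the offset was small and went both ways. The run-on summit minus the ChIP summit along the gene had a median of −12 bp (quartiles −113 and 78 bp). The run-on summit was the farther along the gene in 1163 of the 2510 regions (46.3%). The 2 summits were within 100 bp of each other in 50.3% of the 4692 regions on repeat 1. The strand of the run-on reads is not part of the peak list, so upstream summits cannot be assigned to a direction of transcription.

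**Figure D2:**
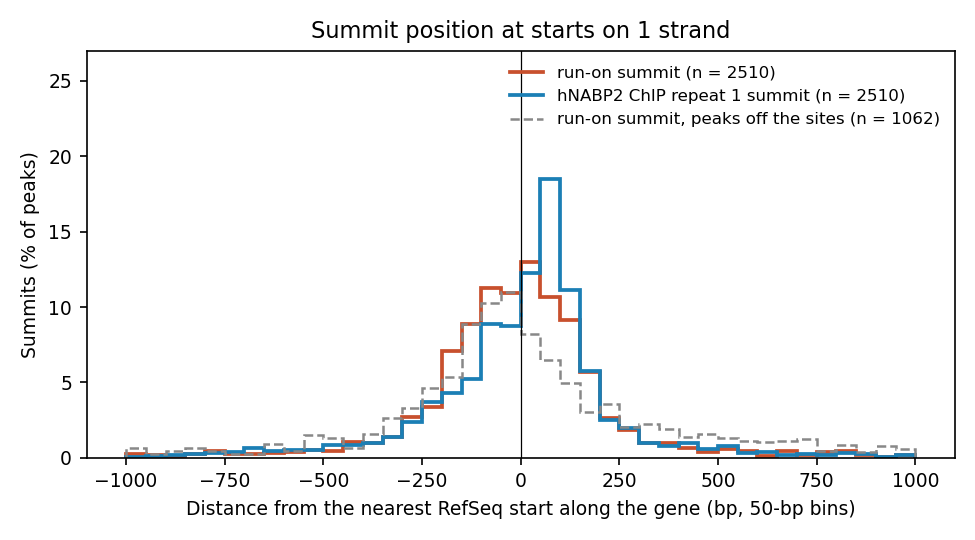
Percent of summits (vertical axis) by distance from the nearest RefSeq start along the gene (horizontal axis, bp, 50-bp bins, negative is upstream), for run-on and hNABP2 ChIP repeat 1 summits of the same 2510 regions and for run-on summits of 1062 peaks off the sites. The ChIP summits (median 38 bp) pile up 50 to 100 bp after the start, and the run-on summits (median −5 bp) spread about evenly around it.

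A small group stood away from known starts. No annotated start or RefSeq gene end lay within 3 kb of 147 regions, whose median fold was 5.27 and of which 17 (11.6%) were bound in both ChIP repeats. The highest was an intergenic region on chr2:70142281-70142960, with a fold of 58.2 and ChIP folds of 3.09 and 5.40. The annotation names LINC01816 as its nearest gene, at a distance to its start given as −16732 bp. It was followed by an intronic region on chr13:33542527-33542970, with a fold of 45.7 and AL139383.1 as the nearest gene. Another lay on chr6:36423316-36423715, in an intron, with a fold of 34.0 and KCTD20 as the nearest start.

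The starts inside the regions were rich in G and C and in CpG. In the window of 300 bp from 250 bp before the start, 3740 RefSeq promoters with a start inside a region had a median of 71.3% G or C (5th to 95th percentile 59.0 to 80.7) and a CpG ratio, observed over expected, of 0.926. The 2526 promoters with a start inside an hNABP2 peak but no run-on peak within 1 kb were close, at 69.7% and 0.882. Starts inside run-on peaks off the sites had 64.3% and 0.842 (928 promoters), and all 34943 listed promoters 58.7% and 0.577.

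Motif counts were made on both strands in the same window, and are given for promoters at the regions, at run-on peaks off the sites, bound without a run-on peak, and for all promoters. GC box letters (GGGCGG) were in 86.1%, 70.2%, 83.5% and 44.9%, in that order. TATA box letters (TATAAA) were in 2.89%, 3.77%, 2.69% and 11.6%. A CCAAT box (CCAAT) was in 36.1% at the regions, fewer than the 43.1% at peaks off the sites, and in 27.0% and 34.6% of the other classes. ETS letters (CCGGAAG) were in 18.2%, 18.3%, 24.0% and 10.2%. E-box letters (CACGTG) were in 12.4%, 10.0%, 10.5% and 7.23%. The CRE letters (TGACGTCA) were in 3.69%, 4.09%, 3.25% and 1.84%. A match is a description of letters and no sign of a factor.

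The other run-on lists were far shorter, with 94 to 518 peaks, and 4456 regions (91.4%) had a peak in none of them. The WT repeat 3 list overlapped the hNABP2 sites most: 209 of its 264 peaks (79.2%, 95% interval 73.8 to 83.9) were on a site. In the other 7 lists the share was 25.5% to 41.1%. WT repeat 3 peaks lay on 178 of the regions (3.65%, 3.14 to 4.22) and on 26 peaks off the sites (0.511%, 0.334 to 0.747). hNABP1 KO repeats 1 and 2, with the same genotype label, had peaks on 72 (1.48%, 1.16 to 1.86) and 52 regions (1.07%), against 19 and 6 peaks off the sites. hNABP2 KO repeats 1 to 3 had peaks on 34, 56 and 17 regions and on 9, 13 and 13 peaks off the sites. For hNABP2 KO repeat 3 these are 0.349% (0.203 to 0.558) and 0.255% (0.136 to 0.436), with overlapping intervals. These libraries were not used in the choice of the regions, but a list of so few peaks cannot show that a site lacks run-on signal. With the regions split into 4 equal groups by run-on fold, WT repeat 3 peaks were on 2.46%, 4.19%, 3.86% and 4.10% of them.

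**Figure D3:**
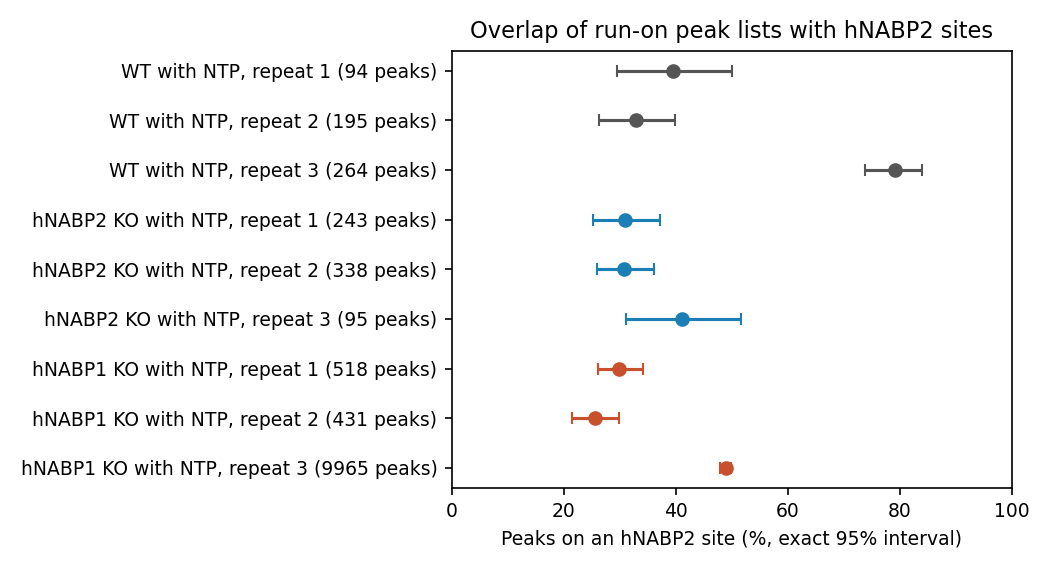
Share of run-on peaks on an hNABP2 ChIP peak (horizontal axis, %, bars are exact 95% intervals) for the 9 run-on peak lists with NTP, with the number of peaks in each. WT repeat 3 (264 peaks) is highest at 79.2%, hNABP1 KO repeat 3 (9965 peaks), from which the regions were taken, is at 48.9%, and the other 7 lie at 25.5% to 41.1%.

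The regions that recurred most were in repeated or multicopy DNA. A peak at RNA5-8SN2, a 5.8S ribosomal RNA gene, was in 6 other run-on lists and one at RNA5-8SN3 in 5, and both lay on a DRIP peak of hNABP2 KO repeat 2. Reads of near-identical ribosomal copies cannot be placed with certainty, so these values are uncertain. Mitochondrial DNA held 4 regions. The widest, 5952 bp at MT-ND6, had a low fold of 4.19 beside a −log10 q of 596, and was shared with WT and hNABP2 KO repeat 3. Next in width were MEX3B (1676 bp), C9orf163 (1641 bp), FAM86B3P (1614 bp) and GAS1 (1583 bp, on ChIP repeat 2 only). DRIP peaks were on 5 and 0 of the regions in WT and on 0 and 30 in hNABP2 KO repeats 1 and 2 (for 0 of 4874 the exact 95% upper limit is 0.0757%). On peaks off the sites they numbered 3 and 2 in WT and 0 and 21 in hNABP2 KO. For hNABP2 KO repeat 2 the shares were 0.616% (0.416 to 0.878) on and 0.412% (0.256 to 0.630) off the sites, with overlapping intervals. With 13 to 173 peaks a list, the DRIP overlap rests on few peaks. UXS1, which makes UDP-xylose, and CLN6, a membrane protein of the endoplasmic reticulum, were among the regions with a DRIP peak, with run-on folds of 73.3 and 46.9.

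Counts per gene came from 18 run-on libraries whose totals were low, 5272 to 23865 except for WT, hNABP2 KO and hNABP1 KO repeat 3 with NTP (164357, 115923 and 115528) and hNABP2 KO repeat 3 without NTP (79429). NABP1 itself had 0, 1 and 18 counts in hNABP1 KO repeats 1 to 3 with NTP and 1, 0 and 19 in WT, so these counts do not check the label. The markers of mesenchymal cells, the kind HT1080 stems from, were counted in 17 of 18 genes in both WT and hNABP1 KO repeat 3, but took 0.190% to 0.281% of counts in the 3 repeat 3 libraries with NTP and 0.835% to 3.27% in repeats 1 and 2. Leukocyte markers were counted in 7 to 10 of 12 genes in repeat 3 with NTP (0.0182% to 0.0483% of counts) and in 2 of 12 in repeats 1 and 2 (0.0204% to 0.0608%). In repeat 3 with NTP epithelial markers were counted in 10 of 12 genes and neural markers in 11 to 12 of 12. Being counted there thus does not tell cell types apart. The mesenchymal share is a sum over its genes, and whether 1 gene carries most of it was not examined. In hNABP1 KO repeat 2 with NTP only 6 of the 18 genes were counted, and they made up the 3.27%. Repeat 3 with NTP stands apart in depth and in this share, together with hNABP2 KO repeat 3 without NTP (0.311%). The part of depth or of that share in the results below was not tested. In bulk libraries, fewer cells of a type and less RNA per cell cannot be told apart. A count of 0 allows up to 3 counts.

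The 4573 promoter regions named 4452 genes, of which 4238 were in the count table of 26475 rows. Their counts come in part from the reads that made the peaks. In hNABP1 KO repeat 3 with NTP these genes held 43.9% of all counts (exact 95% interval 43.6 to 44.1, counting error only). In WT repeat 3 they held 32.3% (32.0 to 32.5), and in hNABP2 KO repeat 3 30.8%. Without NTP, repeat 3 gave 18.5% (18.0 to 19.0) in hNABP1 KO, 26.5% in WT and 32.2% in hNABP2 KO. In hNABP1 KO repeat 3 mesenchymal markers took 4.22% of counts without NTP, the highest of the 18 libraries, and 0.190% with NTP. How the 4.22% was spread over the genes was not examined, and the part of these markers in the shares was not tested. In repeats 1 and 2 all genotypes with and without NTP lay between 18.2% and 24.0%. The 3615 genes with an hNABP2 promoter peak but no run-on peak on it held 16.3% of counts in hNABP1 KO repeat 3, 24.5% in WT and 24.3% in hNABP2 KO. Having no peak in that library defines the class, and the shares are parts of 1 total, so nothing is read from this. Over 3 repeats with NTP the share of the region genes was 29% ± 13.1 (SD, n = 3) in hNABP1 KO, 24.4% ± 7.03 in WT and 25.1% ± 5.16 in hNABP2 KO. The group means differed by less than the SD of a group, though hNABP1 KO was above WT in each of the 3 same-number pairs, the one that gave the regions included. Without repeat 3 the hNABP1 KO values, 24.0% and 19.1%, lay near the WT values of 22.2% and 18.7%.

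**Figure D4:**
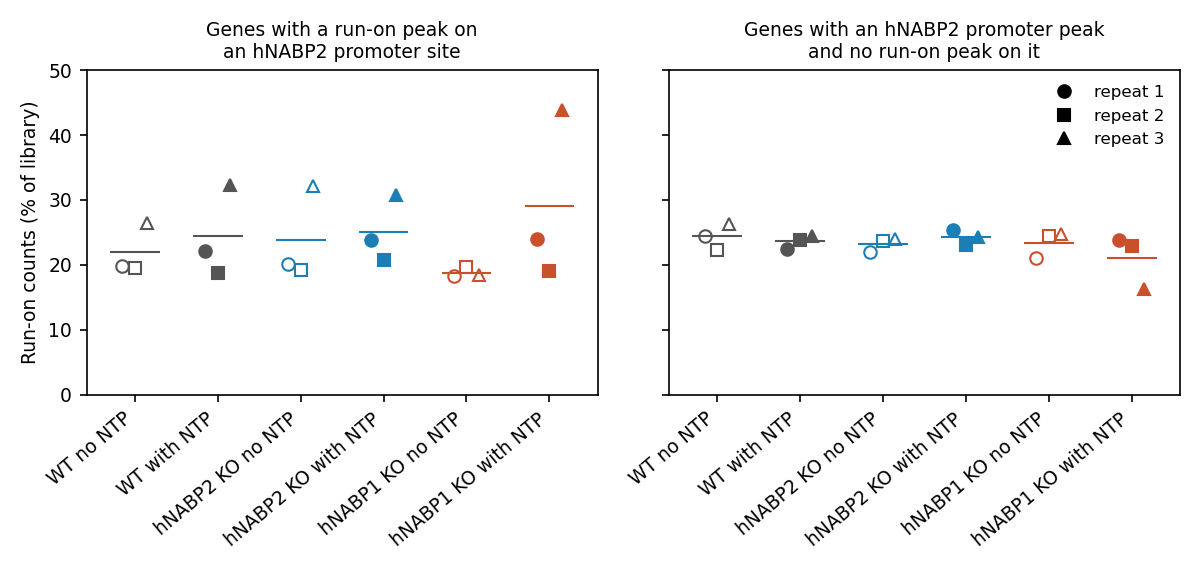
Share of run-on counts (vertical axis, % of library) held by 4238 genes with a run-on peak on an hNABP2 promoter site (left) and by 3615 genes with an hNABP2 promoter peak and no run-on peak on it (right), in 18 libraries; open symbols are without NTP, filled with NTP, shapes are repeats and lines group means. hNABP1 KO repeat 3 with NTP is highest on the left at 43.9% and lowest on the right at 16.3%.

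Between single libraries of repeat 3, 20.4% of the 3647 region genes with 10 or more counts in the pair were at least 2-fold higher in CPM in hNABP1 KO than in WT, beside 12.2% of all 10021 genes so measured. At least 2-fold lower were 603 (16.5%), beside 29.1% of all genes. The regions were chosen from this library, so nothing is read from these counts. In repeats 1 and 2, which the choice did not use, only 49 and 33 region genes were measured. There 7 of 49 were at least 2-fold higher (14.3%, beside 17.3% of all 289) and 7 of 33 (21.2%, beside 21.5% of all 200), and at least 2-fold lower were 4 (8.16%, beside 13.8%) and 4 (12.1%, beside 11%). The shares of higher genes are near the background. Between hNABP2 KO and WT repeat 3, also not used in the choice, 265 of 3671 region genes were at least 2-fold higher (7.22%, beside 9.49%) and 464 lower (12.6%, beside 12.5%). In hNABP2 KO and WT repeats 1 and 2, 21 of 95 region genes were at least 2-fold higher (22.1%, beside 20.3%) and 12 lower (12.6%, beside 10.2%), then 6 of 31 higher (19.4%, beside 16.7%) and 4 lower (12.9%, beside 9.77%). With 1 library on each side none of these has a replicate check.

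The same measure was taken for hNABP1 KO with against without NTP. In repeat 3, whose library with NTP gave the regions, 1337 of 1838 region genes were at least 2-fold higher with NTP (72.7%, beside 58.2% of all 3634) and 179 lower (9.74%, beside 24.1%), and nothing is read from these counts. In repeat 1, 2 of 32 were higher (beside 11.7% of all 197) and 3 lower (9.38%, beside 22.8%). In repeat 2, 6 of 35 were higher (17.1%, beside 13.6%) and 4 lower (11.4%, beside 7.48%). Repeats 1 and 2 thus rest on few genes and lie on either side of the background.

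A higher peak went with more counts of the gene mainly in its own library. There fold and count come in part from the same reads, so nothing is read from this difference between libraries. With the genes split into 4 equal groups from the lowest to the highest peak fold, the median count of the region genes was 5, 6, 8 and 16 in hNABP1 KO repeat 3. In WT repeat 3 it was 10, 11, 11 and 13, and in hNABP2 KO repeat 3 it was 7, 7, 8 and 8. Across the 4238 genes, log2 fold and log2 (count + 1) had a Pearson r of 0.450 in hNABP1 KO repeat 3, 0.109 in WT and 0.107 in hNABP2 KO. The group with the highest folds alone held 21.5% of the counts of hNABP1 KO repeat 3 and 8.90% of those of WT repeat 3. Genes with the summit downstream (1068) and upstream (1081) both had a median of 8 counts in hNABP1 KO repeat 3, though the upstream peaks had the higher median fold, 8.61 against 6.71.

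Single genes show both patterns. Those of this paragraph were picked by −log10 q in hNABP1 KO repeat 3, so their higher counts there follow in part from the choice. P4HB, protein disulfide isomerase, had the second highest −log10 q of the regions bound in both repeats (chr17:81860228-81861200, annotated as promoter, fold 97.7, summit 195 bp upstream). It had 0, 0 and 238 counts in hNABP1 KO repeats 1 to 3, 1, 0 and 16 in WT and 2, 0 and 10 in hNABP2 KO, which in repeat 3 is 2060, 97.3 and 86.3 CPM. SARAF, which turns down store-operated calcium entry, had a fold of 97.2 (chr8:30082809-30083358) and 127, 17 and 11 counts in repeat 3 of hNABP1 KO, WT and hNABP2 KO. FAM174C had a fold of 68.0, and 139, 36 and 23 counts. FASN, fatty acid synthase, lay under hNABP2 peaks along its whole region of 1132 bp (chr17:82098025-82099156, fold 79.6) and had 58, 24 and 26. hNABP1 KO repeats 1 and 2, far shallower, had 0 to 4 counts of each gene. In CPM, SARAF was at 180, 132 and 1099 in hNABP1 KO repeats 1 to 3. FASN was at 361, 265 and 502, so its repeats lay closer together.

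Other regions as high had no such counts. ARHGAP35, a GTPase-activating protein, had a fold of 80.4 (chr19:46860114-46860860) but 5, 5 and 3 counts in repeat 3 of hNABP1 KO, WT and hNABP2 KO. ORAI1, the pore of the store-operated calcium channel, had a fold of 94.8 (chr12:121626227-121626771) and 15, 9 and 5 counts. SSX2IP, a centrosome protein, had a fold of 85.1 with the summit 8 bp upstream of the start, and 18, 22 and 13 counts. GET4, which helps deliver tail-anchored proteins to membranes, had a fold of 62.7, a peak also in WT repeat 3, and 45, 35 and 21 counts. The strongest ChIP repeat 1 peaks at a promoter, with ChIP folds of 15.6 to 18.5, were at LRRC74B, PKNOX1, GTF2A1, FBH1 and ACAP2, where run-on folds were 12.5 to 32.5. ACAP2, which acts on the GTPase ARF6, had peaks in WT repeats 1 and 3 as well, and 46, 55 and 29 counts. PKNOX1, a homeobox factor, had 27, 17 and 14, and GTF2A1, a subunit of TFIIA, had 30, 21 and 14.

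**Figure D5:**
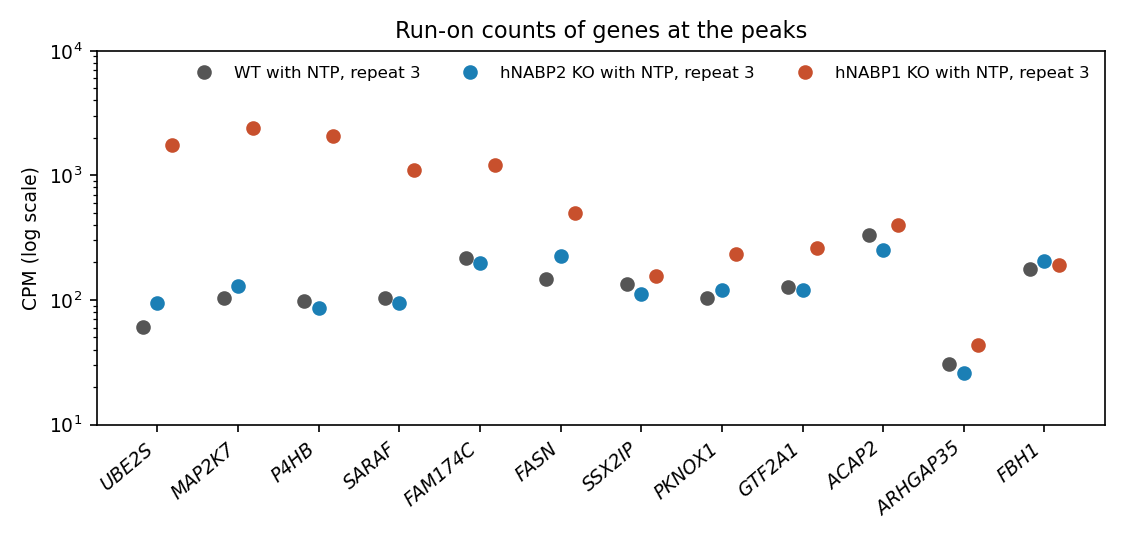
CPM (vertical axis, log scale) of 12 genes at the regions in repeat 3 of WT, hNABP2 KO and hNABP1 KO with NTP, 1 point per library. P4HB is at 2060 CPM in hNABP1 KO against 97.3 in WT and 86.3 in hNABP2 KO, while ARHGAP35 (43.3, 30.4 and 25.9) and FBH1 (190, 176 and 207) lie close together.

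Over the 3 repeats no gene passed the main test, without pairing. Since that test recovered no change put into simulated data, its counts of 0 do not show that genes did not differ. edgeR's quasi-likelihood test of hNABP1 KO against WT with NTP, without pairing, kept 129 genes, 22 of them at the regions, and called 0 (0% of genes tested, smallest adjusted p = 1, 1 gene at an unadjusted p under 0.05, DESeq2 also 0). With the repeat number as a block, 0 of the same 129 passed (smallest edgeR adjusted p = 0.414, 10 at an unadjusted p under 0.05). LONP1, a mitochondrial protease, had the smallest p among the region genes, with a log2 change of 2.39 (SE 1.28, edgeR adjusted p = 1). Its counts were 3, 15 and 200 in hNABP1 KO repeats 1 to 3, 3, 7 and 40 in WT and 5, 19 and 49 in hNABP2 KO. In CPM it was at 270, 1986 and 1731 in hNABP1 KO, 250, 1190 and 243 in WT and 255, 2887 and 423 in hNABP2 KO. Repeat 2 was thus the highest in every genotype. THBS1, a matricellular protein, was near WT at 0.21 (SE 1.47). For hNABP2 KO against WT, 0 of the 129 genes passed (smallest edgeR adjusted p = 0.99, 0 at an unadjusted p under 0.05, DESeq2 0). With the block 0 passed as well (smallest edgeR adjusted p = 0.842, 4 at an unadjusted p under 0.05). The libraries of these groups were not used in the choice, but hNABP1 KO repeat 3 entered the filter, scaling and spread of the model. For hNABP1 KO with against without NTP, 0 of 211 genes, 33 at the regions, passed (smallest edgeR adjusted p = 0.812, 6 at an unadjusted p under 0.05, DESeq2 0). With the repeat number as a block 5 of the 211 passed (2.37%), all higher with NTP, and with 10 or more counts as well 1 of 14907 (0.00671%), GRPR, lower and not at a region. LONP1 and ACTB, cytoplasmic actin, were the 2 region genes among the 5. Their log2 changes were 2.52 (SE 0.693) and 3.05 (SE 0.849), with edgeR adjusted p = 0.049 for both. This comparison includes the library the regions were chosen from, and the fit that called them was not run without it. In hNABP1 KO repeats 1 to 3 without NTP LONP1 was at 448, 1255 and 670 CPM, above its value with NTP in repeat 1. ACTB was at 1082, 0 and 268 CPM with NTP and at 597, 157 and 41.9 without. Nothing is read from these 2 calls.

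With a wider set of genes and the repeat number as a block, 16 of 13447 genes with 10 or more counts over the libraries were higher in hNABP1 KO than in WT (0.119%) and 0 lower. Of these, 11 were among the 4005 region genes tested. The calls rest on the library the regions were chosen from, and without it the same fit called 0 genes (60 at an unadjusted p under 0.05, smallest edgeR adjusted p = 0.199). UBE2S, a ubiquitin-conjugating enzyme of the anaphase-promoting complex, had the highest peak fold of all the regions, 128 (chr19:55407746-55408435). Its counts were 1, 0 and 202 in hNABP1 KO and 0, 0 and 10 in WT, a log2 change of 5.03 (SE 0.989, edgeR adjusted p = 0.00241). MAP2K7, a kinase that activates JNK, had a peak fold of 97.2 (chr19:7903541-7903951) and counts of 1, 0 and 278 against 0, 0 and 17 (edgeR adjusted p = 0.00276). The other 9 were SFR1, UBE2V2, P4HB, SARAF, NCOA5, LYPD6, PTPN2, AHCY and JUND, with log2 changes of 3.59 to 4.63. SFR1 had 0, 0 and 59 counts in hNABP1 KO, 0, 0 and 4 in WT and 0, 0 and 3 in hNABP2 KO. It thus passed the count filter only through hNABP1 KO repeat 3. In data simulated at this depth the same fit recovered 0 of the 169 changes of 8-fold tested. Nothing is read from the 11 calls at the regions. These genes were named after their values were seen. The median log2 change in that fit was 0.38 over the region genes and −0.05 over all genes tested, and without hNABP1 KO repeat 3 it was −0.17 and −0.14.

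Named gene groups differed in how many of their genes had a region at the promoter. The lists were chosen with results of these data known, and their counts stand beside 16.0% of all rows of the count table and 38.8% of rows with 10 or more counts in WT repeat 3. The genes named from each list, here and below, were picked by −log10 q in hNABP1 KO repeat 3. Their counts are not scaled to library totals, and nothing is read from higher counts in that library. Cholesterol and fatty acid synthesis genes had the highest share, 18 of 26 (69.2%), with FASN and with IDI1, an isomerase of isoprenoid synthesis (fold 43.4, 57, 12 and 5 counts in repeat 3 of hNABP1 KO, WT and hNABP2 KO). Immediate early genes followed with 16 of 30 (53.3%). Among them JUND, an AP-1 subunit, had a fold of 30 and 143, 21 and 12 counts, and ATF3, a stress-induced factor, had one of 37.3 and 61, 15 and 8 counts. Hypoxia and glycolysis genes had 17 of 32, with ALDOA, the aldolase of muscle and many other cells, at a fold of 20.4 and 25, 41 and 23 counts. For DNA break and replication stress genes it was 16 of 36 (44.4%). NBN, of the MRE11 complex, had a fold of 50.7 and 77, 8 and 8 counts, and FANCA, of the Fanconi core complex, had one of 66.7 and 20, 14 and 25.

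Genes of the transcription machinery varied from list to list. Of the splicing factors 20 of 49 had a region, with SF3B2 of the U2 particle at a fold of 86.3 (47, 18 and 10 counts) and HNRNPA0 at 70.8 (7, 10 and 9 counts). Chromatin genes had 20 of 46, with DNMT1, the maintenance DNA methyltransferase, at 41.4 (91, 20 and 15 counts) and the histone methyltransferase SETD1A at 46.6 (72, 33 and 20 counts). Pausing and elongation factors had 10 of 27. NELFA, of the complex that holds paused polymerase, was at 52.4 (104, 10 and 14 counts), and CCNT2, a cyclin of P-TEFb, at 37.7 (8, 13 and 8 counts). RNA polymerase subunits had 10 of 26, and POLR3G of polymerase III was at 49.9 (68, 12 and 4 counts). SOSS and Integrator genes had 4 of 15, with INTS10 at 21.5 and INTS6 at 13.9. General transcription factors and Mediator had 7 of 53 (13.2%), with 18 more bound and without a region, and R-loop and helicase factors 6 of 28 (21.4%).

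Of the growth genes, the S-phase list had 15 of 37, with SLBP, which binds the stem-loop of histone mRNA, at a fold of 64.2 (121, 39 and 18 counts) and MCM2 of the replicative helicase at 48.7 (64, 22 and 16 counts). G2 and mitosis genes had 3 of 25, and MKI67, a marker of cycling cells, was at 6.84. Heat shock genes had 11 of 27, with HSPD1 at 33.8 (97, 27 and 23 counts), and p53 targets 11 of 26, with XPC, a sensor of DNA lesions, at 17.2 (31, 13 and 8 counts). Cytoskeleton genes had 15 of 40, with TPM1, a tropomyosin, at 23.7 (92, 24 and 14 counts) and CAPZB, which caps actin filaments, at 55.1 (5, 14 and 5 counts).

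Several groups had hNABP2 at the promoter but few or no regions. Replication-dependent histone genes had a region at 0 of 32, though 16 had an hNABP2 promoter peak. Of the cytosolic ribosomal protein genes 8 of 77 had a region and 40 an hNABP2 peak without one, so 16.7% of those bound carried a region, beside 54.0% of all bound rows. For G2 and mitosis genes that share was also 16.7%, for collagen and matrix genes 26.1% (6 of 35 with a region) and for mesenchymal markers 7.69% (1 of 18, THBS1 at a fold of 2.40, with 12 bound and without a region). Abundant structural and nuclear non-coding RNAs had 0 of 16, with 7 bound. In cholesterol and fatty acid genes, by contrast, 81.8% of those bound carried a region. Among markers of other cell types, 2 of 12 epithelial (16.7%) and 1 of 12 leukocyte genes (8.33%) had an hNABP2 promoter peak and none a region. Of the neural genes 2 of 12 (16.7%), MAP2 and TUBB3, had both. These few genes stand beside the 29.7% of all rows, and no difference is read from them. No test of these shares was made, and genes of 1 list are not replicates.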

How the data were processed

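Raw counts per gene symbol, deposited by the authors for 18 run-on libraries, were used without change (26475 rows, 5272 to 164357 counts per library). In the deposited peak lists each peak has a fold, the ratio of its summit to the local background, and a −log10 q value, both the authors' own. Per the submitters' processing notes, cutadapt 1.18, Bowtie2 2.3.5, SAMtools and MACS2 2.2.1 were used with hg38; their order and settings, the control libraries and the strand setting of the counts are not stated there. Antisense and overlapping genes and repeated copies can therefore share counts.

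Peaks were compared at an overlap of at least 1 bp in Python 3.11.15 (pandas 2.3.3, scipy 1.17.1). The deposited annotation of ChIP repeat 1 gave 10055 intervals. The gene of a region is that of the ChIP peak it overlaps most. RefSeq gene ends and promoters (GRCh38.p14) came from gene tables that hold only part of all starts, so the share near a start was measured with gene ends. The planned windows of 300 bp around summits were not used here because no genome sequence was given. Shares carry exact Clopper-Pearson 95% intervals for counting error only; PCR duplicates make reads less than independent. Motif counts used 34943 promoters. CPM are counts scaled to the library total.

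Counts were tested with edgeR 4.0.16 in R 4.3.3 (quasi-likelihood F test, filterByExpr, TMM, Benjamini-Hochberg over all genes tested, threshold 0.05), in 1 model of 9 libraries with NTP, or of 18 for the effect of NTP. Fits were tested on simulated data for hNABP1 KO against WT, with changes of 8-fold. At the depth of these libraries 11 of the 13 changes tested were recovered with filterByExpr and the block together. None were recovered by the other fits simulated at that depth. Repeat numbers paired the libraries with NTP: with group means removed, same-number pairs correlated at 0.353 to 0.689 and different-number pairs at −0.434 to 0.0200. Between hNABP1 KO libraries with and without NTP the ranges overlapped, −0.0264 to 0.291 for same-number and −0.325 to 0.181 for different-number pairs. Whether repeat numbers pair those libraries is thus not settled. Alternatives were DESeq2 1.42.0, other scaling, filters, blocks and single libraries left out.

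Regions named are the 10 highest by −log10 q on both ChIP repeats, the 5 highest by ChIP repeat 1 fold at promoters, the 5 widest, up to 5 away from starts, up to 10 shared with WT or hNABP2 KO repeat 3 or DRIP lists, up to 2 per gene list and the 2 nearest to each side of the overlap limit. The regions and lists were chosen with earlier results of these data known.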

Additional observations from a re-analysis of the deposited data

How the results depend on the processing

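The number of regions stayed within 1.5 times of 4874 when at least 50% of the peak had to be covered, when the summit had to lie inside an hNABP2 peak, or when −log10 q had to reach 5 (3926, 4087 and 3467). It was 1355 with both ChIP repeats required, and 1537 to 4692 with 1 ChIP repeat left out, the lower value without repeat 1. The share with a gene end within 1 kb was 87.7% at −log10 q of at least 5 and 87.7% with both repeats required, and 86.4% to 86.9% with 1 ChIP repeat left out. The difference of median folds, 3.73, was 1.97 at −log10 q of at least 5 and 3.88 with both repeats required, and 3.32 to 3.75 with 1 repeat left out. In the gene tests, hNABP1 KO against WT gave 16 calls with 10 or more counts and the replicate block together, against 0 without; the block alone, over 129 genes, gave 0. For NTP in hNABP1 KO, the replicate block alone gave 5 calls (LONP1 and ACTB among them), and the block with 10 or more counts gave 1. Whether the repeat numbers pair the libraries there is not settled. hNABP2 KO against WT gave 0 under every alternative run, the block included. Leaving out each of the 6 libraries of the groups compared, in turn and without the block, gave 0 calls in each comparison. With the block, only hNABP1 KO repeat 3 was left out. The fit with 10 or more counts and the block, without hNABP1 KO repeat 3, gave 0 calls in both comparisons in which it was run. It was chosen after seeing the data. The cause of these changes was not tested. Outside repeat 3 most genes had no count in a library with NTP. In data simulated at 100 times the depth, the fit with 10 or more counts recovered 0 of 200 changes of 8-fold without the block. With the block it recovered 45 of the 200. What depth limits in the tests of the real counts was not tested further.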
